A study of Mus musculus with 18 samples.

Results

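Genes of mitosis and cytokinesis were followed through PreCFU-E and CFU-E, successive committed red cell progenitors of the mouse, in animals that differed in Scf. Scf encodes stem cell factor, the ligand of the receptor KIT, which these progenitors carry. The set is a list of gene names chosen by function, with no measured value in its rule, and holds 51 of the 21967 genes of the count table. It was chosen with earlier results of these data known. All 51 passed the filter on low counts in every comparison, so none was lost. By role they are 7 genes of cyclins, CDK1 and mitotic entry, 7 of spindle poles and spindle assembly, 9 of the spindle checkpoint, the anaphase-promoting complex and separase, 7 of centromere and kinetochore, 4 of the chromosomal passenger complex, 4 kinesins of spindle and chromosomes, 7 of cytokinesis, and 6 of condensin and chromosome structure.

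The FL/FL mice carried floxed Scf copies alone and served as the control, and no mouse without a floxed copy was analysed here. The KO/FL mice carried a null copy over a floxed one. The KO/FL;Lepr-Cre mice, called Lepr-Cre below, carried the same alleles plus Cre expressed from the leptin receptor locus, which is active in stromal cells of the marrow niche and not in the sequenced progenitors, so no library measures the deletion itself. Each genotype had 3 mice, lettered A, B and C, of which B was female and A and C male, and each of the 9 mice gave both cell types, so 18 libraries in 6 groups of 3. The labels used here give no age. Each library came from 5000 to 10000 cells sorted after c-Kit bead enrichment, and RNA was pooled over the cells of a library. In such bulk samples a smaller share of cells in mitosis and less RNA per mitotic cell cannot be told apart.

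Commitment to mitosis is driven by CDK1 bound to cyclins A and B, which the CDC25 phosphatases switch on and the Polo and Aurora kinases reinforce. The anaphase-promoting complex with its activator CDC20 then destroys the B cyclins and securin, separase cuts cohesin, and a midzone of microtubules built by PRC1 and by KIF23 with RACGAP1 (centralspindlin) places the cleavage furrow. Most of these genes are transcribed late in the cell cycle, through MuvB complexes with B-MYB, FOXM1 or E2F4 at a CHR element and through NF-Y at CCAAT boxes. Erythroid progenitors divide rapidly before they fill with haemoglobin, and a KIF23 mutation is a known cause of congenital dyserythropoietic anaemia type III, in which red cell precursors fail to separate and become multinucleate.

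The promoters of the set were searched for these elements. RefSeq promoter sequences on GRCm38.p6, from 250 bases before to 50 bases after a start site, matched 42 of the 51 genes with 45 entries. Aurkb, Ccna2, Cdc25c, Dlgap5, Incenp, Kif20a, Smc4, Spc24 and Tpx2 had no entry. The CHR letters TTTGAA, searched on both strands, occurred in 77.8% of the 45 entries and in 17.9% of all 32851 entries. The NF-Y letters CCAAT, also on both strands, occurred in 82.2% and 37.4%, and both motifs together in 68.9% and 6.95%. By gene, 28 of 42 held both, against 6.92% of 15149 genes of the count table with an entry. Matches of the 2 motifs that overlap were counted for both, and a match is a run of letters, not a measured binding site. In 29 of the 42 genes a TTTGAA began within 50 bases of the start site, a position that was not counted over all genes.

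The windows below show the TTTGAA nearest to the start site for the 9 genes that held one and passed the test in at least 2 of the 9 pairwise comparisons. Each is given 5′ to 3′ on the strand that reads TTTGAA, with that motif in capitals and 10 bases on either side. Smc2 alone among them carries it on the strand opposite to the gene.
Aurka: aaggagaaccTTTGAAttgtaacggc
Hmmr: ttgaggtaaaTTTGAAttcaggcgag
Cdc20: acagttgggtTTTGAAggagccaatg
Kif23: gattggcctgTTTGAAatgcgccggg
Ccnb2: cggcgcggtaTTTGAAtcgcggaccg
Prc1: tctggctcggTTTGAAttccgcgggg
Kif4: ctgggatcaaTTTGAAacttggcggt
Plk1: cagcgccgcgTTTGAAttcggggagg
Smc2: gaactgttccTTTGAAtttcggcgcg

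Whole promoter entries are given for the 4 genes that held both motifs and passed the test most often, ordered by the number of comparisons passed and then by the smallest p. They are printed 5′ to 3′ on the gene's strand, with the CHR and NF-Y letters in capitals, and an NF-Y box on the other strand reads ATTGG. Aurka lies at chr2:172370521-172370820 (minus strand), Hmmr at chr11:40733388-40733687 (minus), Cdc20 at chr4:118437294-118437593 (minus) and Kif23 at chr9:61946750-61947049 (minus). In all 4 the CHR letters sit downstream of at least 1 CCAAT box, next to the start site, and Hmmr has the most boxes.
Aurka: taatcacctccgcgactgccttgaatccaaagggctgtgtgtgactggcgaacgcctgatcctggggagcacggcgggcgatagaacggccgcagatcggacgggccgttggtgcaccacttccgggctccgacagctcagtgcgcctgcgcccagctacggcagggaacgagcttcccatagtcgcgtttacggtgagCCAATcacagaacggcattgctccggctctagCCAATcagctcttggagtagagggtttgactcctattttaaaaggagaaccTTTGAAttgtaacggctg
Hmmr: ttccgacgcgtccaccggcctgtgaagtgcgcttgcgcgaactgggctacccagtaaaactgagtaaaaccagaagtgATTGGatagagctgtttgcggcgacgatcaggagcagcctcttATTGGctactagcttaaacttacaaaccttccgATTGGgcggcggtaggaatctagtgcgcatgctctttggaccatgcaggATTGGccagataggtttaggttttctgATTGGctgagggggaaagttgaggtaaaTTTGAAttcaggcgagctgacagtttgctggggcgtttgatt
Cdc20: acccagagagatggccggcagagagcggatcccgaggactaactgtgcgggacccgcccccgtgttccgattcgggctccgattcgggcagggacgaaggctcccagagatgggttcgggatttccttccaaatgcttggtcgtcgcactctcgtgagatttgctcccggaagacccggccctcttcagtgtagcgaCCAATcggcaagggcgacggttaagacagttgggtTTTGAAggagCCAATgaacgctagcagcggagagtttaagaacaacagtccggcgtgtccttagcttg
Kif23: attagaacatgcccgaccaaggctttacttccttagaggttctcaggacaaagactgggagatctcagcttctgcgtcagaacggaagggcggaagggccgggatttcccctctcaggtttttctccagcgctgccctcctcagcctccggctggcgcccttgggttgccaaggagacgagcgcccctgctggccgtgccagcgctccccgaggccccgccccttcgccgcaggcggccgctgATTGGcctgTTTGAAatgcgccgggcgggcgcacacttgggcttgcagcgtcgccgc

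The 10 genes whose entry held no TTTGAA were Birc5, Bub1, Ccnb1, Cdc25b, Cenpe, Cks2, Mad2l1, Nek2, Nuf2 and Pttg1, and 4 of them (Birc5, Mad2l1, Nuf2 and Pttg1) held neither motif in this window. Only the exact letters of each motif were searched. Birc5 was among the genes that rose most between the cell types, and a link between motifs and fold changes was not tested.

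Library totals ran from 3541066 to 9389122 counts, and the 51 genes took 1.10% to 1.40% of them. Levels are given as CPM, that is, counts relative to the library total times its TMM factor. Summed markers of erythroid progenitors were 4847 to 5569 CPM with none of the 8 at 0 in any group, while neutrophil and monocyte markers summed to at most 5.003 CPM, with Elane and Ctsg at 0 throughout. Megakaryocyte markers summed to 30.2 to 53.0 CPM in the 6 groups. The library of Lepr-Cre CFU-E replicate B had the fewest genes detected, 10782 against 11382 or more elsewhere, and is named where a count rests on it.

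Every one of the 51 genes was present in all 18 libraries, between 44 counts for Cdc25b in its lowest library and 27415 for Mki67 in its highest. To compare genes, CPM were divided by kilobases of annotated exon. On that scale Mki67, which coats mitotic chromosomes and is the classic marker of cycling cells, was highest at a mean of 246 CPM per kb, with libraries from 162 to 320. Smc4, a condensin ATPase, followed at 148 (129 to 171), the CDK1 adaptor Cks2 at 146 (113 to 188), the topoisomerase Top2a at 137 (118 to 163) and the passenger complex scaffold Incenp at 96.0 (84.5 to 107). The libraries of Smc4, Cks2 and Top2a overlapped one another, those of Mki67 overlapped Smc4, Cks2 and Top2a, and those of Incenp overlapped the next gene Smc2 (mean 95.7, 75.8 to 110). These ranges over 18 libraries from 6 groups do not resolve the order among these genes. Group means of Mki67 were 217 to 277 CPM per kb, above those of Smc4 (132 to 161), Cks2 (124 to 160) and Top2a (133.5 to 143.5). The lowest were the CDK1 phosphatases Cdc25c at 4.39 (2.43 to 6.96) and Cdc25b at 4.56 (1.40 to 8.75), then the kinetochore subunit Ndc80 at 11.2, the checkpoint protein Mad2l1 at 12.1 and securin Pttg1 at 12.2. Of the cyclins, Ccna2 stood at 87.6, Ccnb2 at 75.5 and Ccnb1 at 18.1 CPM per kb.

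In PreCFU-E of Lepr-Cre mice against FL/FL mice, 7 of the 51 genes rose and none fell at an adjusted p below 0.05 (edgeR quasi-likelihood test, Benjamini-Hochberg over all 10309 genes tested), where 2.89% of all genes rose and 6.13% changed in either direction. They were the anaphase activator Cdc20, the midzone proteins Kif23 and Prc1, cyclin A2 (Ccna2), the spindle kinases Aurka and Plk1, and the spindle assembly factor Hmmr. The median log2 fold change of the 51 genes was 0.17 against 0.00 over all genes, and 42 of 51 lay above 0 against 50.5% of all genes. By role, 3 of 7 spindle pole genes and 2 of 7 cytokinesis genes rose, with 1 of 7 cyclin and entry genes and 1 of 9 checkpoint and anaphase genes. No gene of the centromere and kinetochore, passenger complex, kinesin or condensin groups passed.

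Cdc20 stood at 84.1, 78.3 and 91.8 CPM for FL/FL replicates A, B and C, at 109.6, 86.3 and 110.6 for KO/FL and at 121.5, 148.5 and 132.6 for Lepr-Cre mice. All Lepr-Cre libraries were above all others, and KO/FL replicate B lay within the FL/FL range. Its log2 fold change of Lepr-Cre against FL/FL was 0.67 (SE 0.13, adjusted p = 0.00283, edgeR), or 1.59-fold. Kif23 measured 66.8, 68.3 and 78.5 CPM for FL/FL, 89.4, 74.8 and 74.2 for KO/FL and 113.6, 110.4 and 104.6 for Lepr-Cre mice. The Lepr-Cre libraries again lay above the rest, with a log2 fold change of 0.63 (SE 0.13, adjusted p = 0.00506, edgeR). Ccna2, which opens the way into mitosis, measured 270.4, 268.2 and 247.4 CPM for FL/FL, 302.1, 290.0 and 261.5 for KO/FL and 356.2, 357.1 and 353.5 for Lepr-Cre mice. The Lepr-Cre libraries were close together and above the others, at a log2 fold change of 0.45 (SE 0.10, adjusted p = 0.00827, edgeR).

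Hmmr measured 164.3, 134.9 and 170.9 CPM for FL/FL, 186.1, 188.8 and 173.0 for KO/FL and 221.0, 231.8 and 215.3 for Lepr-Cre mice, a log2 fold change of 0.51 (SE 0.11) against FL/FL. The 3 genotypes did not overlap. Aurka, the kinase of the spindle poles, measured 72.0, 59.3 and 65.9 CPM for FL/FL, 66.6, 64.2 and 63.4 for KO/FL and 101.4, 89.1 and 90.3 for Lepr-Cre mice, a log2 fold change of 0.51 (SE 0.14). For Aurka, KO/FL lay within the FL/FL range rather than between. Plk1, the Polo kinase, measured 117.4, 94.98 and 98.15 CPM for FL/FL, 129.9, 104.6 and 105.5 for KO/FL and 150.5, 135.0 and 142.6 for Lepr-Cre mice, a log2 fold change of 0.47 (SE 0.13). Prc1, the microtubule bundler of the midzone, measured 175.4, 166.3 and 180.8 CPM for FL/FL, 223.4, 177.1 and 182.6 for KO/FL and 233.1, 218.5 and 238.6 for Lepr-Cre mice, a log2 fold change of 0.41 (SE 0.11). The adjusted p of these 4 genes were 0.00601, 0.0263, 0.0284 and 0.0293 by edgeR. Exons of Cdc20, Ccna2, Prc1 and Plk1 overlap those of Elovl1, Exosc9, Rccd1 and Gm44985 on the other strand, whose reads cannot be told apart if counting ignored strand.

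Libraries of the 2 genotypes did not overlap in 18 genes that were higher in Lepr-Cre and 2 that were lower, where 12.2% and 12.8% of all genes did so. The 2 lower genes, neither past the threshold, were Cdc25b (log2 fold change -0.66) and Anln, the scaffold of the cleavage furrow (log2 fold change -0.33, adjusted p = 0.0711). With the replicate letter as a block, 19 genes passed, 18 higher and Anln lower (adjusted p = 0.00565, edgeR), where 15.4% of all genes did. On library totals without TMM 5 passed (6.09% of all genes), namely Cdc20, Kif23, Ccna2 and Hmmr higher and Anln lower (adjusted p = 0.0321, edgeR), while Aurka, Plk1 and Prc1 were lost. DESeq2 called the 7 genes higher and Anln lower (adjusted p = 0.0483), where it called 7.49% of all genes. The genes that the block added on the high side included Ube2c (log2 fold change 0.40), Ccnb1 (0.43), Ncapg (0.34), Bub1 (0.35), Spc24 (0.40) and Mki67 (0.20). Without a block, Cdc20 and Kif23 passed with any single library left out, Ccna2 was lost without FL/FL replicate C (log2 fold change 0.40, adjusted p = 0.0598, edgeR) and Hmmr without FL/FL replicate B (0.42, adjusted p = 0.0549, edgeR). Aurka and Plk1 passed only when FL/FL replicate A was the library left out, and Prc1 was lost without any one of the 6, with log2 fold changes of 0.45 to 0.59, 0.41 to 0.57 and 0.36 to 0.44 over all alternatives. The number past the threshold was 3 without FL/FL replicate B or C, 4 without Lepr-Cre replicate B or C, and 0 in the male replicates A and C alone. These fits called 416, 386, 371, 387 and 193 of all genes, in that order, against 632 in the main fit.

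Summed endothelial markers were 39.7 to 46.0 CPM in FL/FL and 19.3 to 27.7 in Lepr-Cre PreCFU-E, with Cdh5 at 0 in both. Only 2 of the 5 endothelial markers passed the filter on low counts, and 1 was called lower. Markers of haemoglobinised erythroblasts overlapped, at 20.9 to 57.0 and 46.0 to 73.6 CPM, with 4 of 8 tested and 1 called higher. Their part in the differences of the mitosis genes was not tested.

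**Figure D1:**
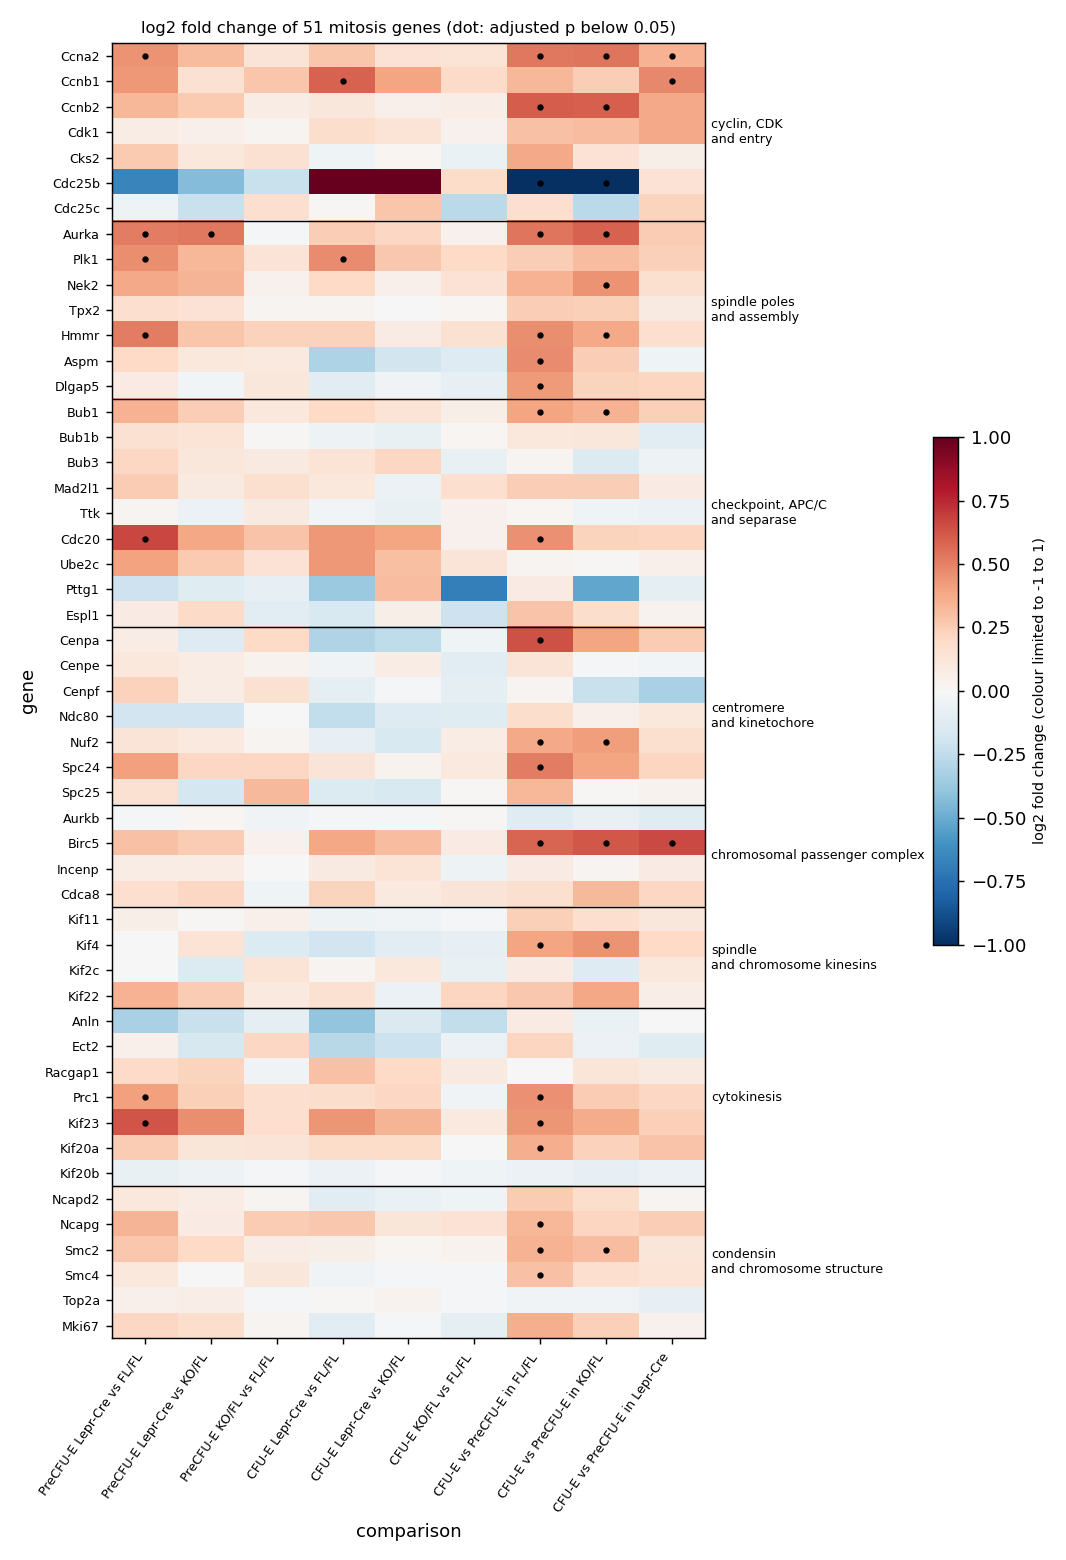
Log2 fold change (colour, limited to -1 to 1) of the 51 genes (rows, grouped by role) in the 9 pairwise comparisons (columns), with a dot where the adjusted p was below 0.05. Dots gather in the 3 columns that compare CFU-E with PreCFU-E, where FL/FL mice have 20, KO/FL mice 11 and Lepr-Cre mice 3. Of all tested genes 18.3%, 14.1% and 7.25% passed in these columns, in the same order. Cdc25b has the opposite sign to most genes in the first 2 of these columns. Comparisons that share libraries are not independent.

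Against KO/FL mice, only Aurka passed in Lepr-Cre PreCFU-E (log2 fold change 0.53, SE 0.14, adjusted p = 0.0447, edgeR), 1 of 51 where 1.02% of all genes rose and 2.18% changed. Kif23 (log2 fold change 0.46, adjusted p = 0.0772) and Ccna2 (0.32, adjusted p = 0.120) came next and did not pass. The median over the 51 genes was 0.11, and 38 lay above 0. The call on Aurka was lost with any single library left out (log2 fold changes 0.46 to 0.56, adjusted p = 0.0722 to 0.174, edgeR). With the replicate letter as a block 7 genes passed, all higher: Aurka, Kif23, Ccna2, Cdc20, Plk1, Hmmr and Mki67 (8.15% of all genes).

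In PreCFU-E of KO/FL against FL/FL mice no gene of the set passed, and 0% of all genes did. At an unadjusted p below 0.05 there were 350 of all 10309 genes and 3 of the set, all higher in KO/FL: the condensin subunit Ncapg (log2 fold change 0.25), Cdc20 (0.28) and Hmmr (0.23). DESeq2 called 0 as well. The median was 0.09, and 40 of 51 genes lay above 0 against 50.8% of all genes.

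In CFU-E of Lepr-Cre against FL/FL mice 2 genes rose and none fell, where 2.08% of all genes rose and 4.83% changed. Cyclin B1 (Ccnb1), the partner of CDK1 in mitosis, measured 56.9, 70.0 and 84.8 CPM for FL/FL, 81.6, 83.0 and 77.4 for KO/FL and 101.7, 108.0 and 107.1 for Lepr-Cre mice. The Lepr-Cre libraries lay above all others, with a log2 fold change against FL/FL of 0.59 (SE 0.15, adjusted p = 0.0191, edgeR). Plk1 measured 122.0, 112.9 and 132.4 CPM for FL/FL, 149.0, 114.4 and 158.0 for KO/FL and 184.7, 172.0 and 148.8 for Lepr-Cre mice, which overlapped KO/FL but not FL/FL. Its log2 fold change was 0.47 (SE 0.13, adjusted p = 0.0421, edgeR).

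The median of the 51 genes in this comparison was 0.03 against 0.00 over all genes, with 29 above 0. The set spread to both sides of 0 here, from Anln at -0.40 to Cdc25b at 1.22. Of the 7 centromere and kinetochore genes 1 lay above 0, with a median of -0.10, and of the 7 cyclin and entry genes 6 did, with a median of 0.17. Groups did not overlap for 11 higher genes and 2 lower ones, against 10.3% and 11.8% of all genes. With the replicate letter as a block 10 genes passed (9.15% of all genes), namely Ccnb1, Plk1, Cdc25b, Kif23, Cdc20, Ube2c, Birc5 and Ccna2 higher and Anln and Aspm lower. Without the block the number was 0 without Lepr-Cre replicate B, FL/FL replicate A or FL/FL replicate B, 4 without Lepr-Cre replicate C or FL/FL replicate C, and 0 in males alone. The same fits called 347, 221, 246, 445, 610 and 132 of all genes, in that order, against 492 in the main fit. Ccnb1 then had log2 fold changes of 0.46 to 0.73 and Plk1 of 0.39 to 0.55. Summed endothelial markers were 25.6 to 33.7 CPM for FL/FL and 6.44 to 12.98 for Lepr-Cre CFU-E, with Cdh5 at 0 in both and Kdr at 0 in FL/FL. Stromal markers summed to 0.473 to 1.64 and 3.78 to 6.78 CPM, and B cell markers to 0 to 2.31 and 1.76 to 10.6 CPM, in the same order. Of 5 markers in each list, 2 endothelial, 1 stromal and 1 B cell marker passed the filter on low counts. Of these only 1 endothelial marker was called, lower in Lepr-Cre mice. Their part in the result was not tested.

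Against KO/FL mice none passed in Lepr-Cre CFU-E, where 1.01% of all genes did, and 5 had an unadjusted p below 0.05, as did 1218 of all 10192 genes. The smallest p belonged to Cdc20 (log2 fold change 0.39), Cdc25b (1.04) and Ccnb1 (0.40). Neither DESeq2 nor the fit with the block (2.75% of all genes) called any. In CFU-E of KO/FL against FL/FL mice none passed, none had an unadjusted p below 0.05 (210 of all 10192 genes did), DESeq2 called 0, and 0% of all genes passed. The 3 smallest p belonged to Anln (log2 fold change -0.25), Pttg1 (-0.69) and Kif22 (0.22), and the median was 0.01.

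**Figure D2:**
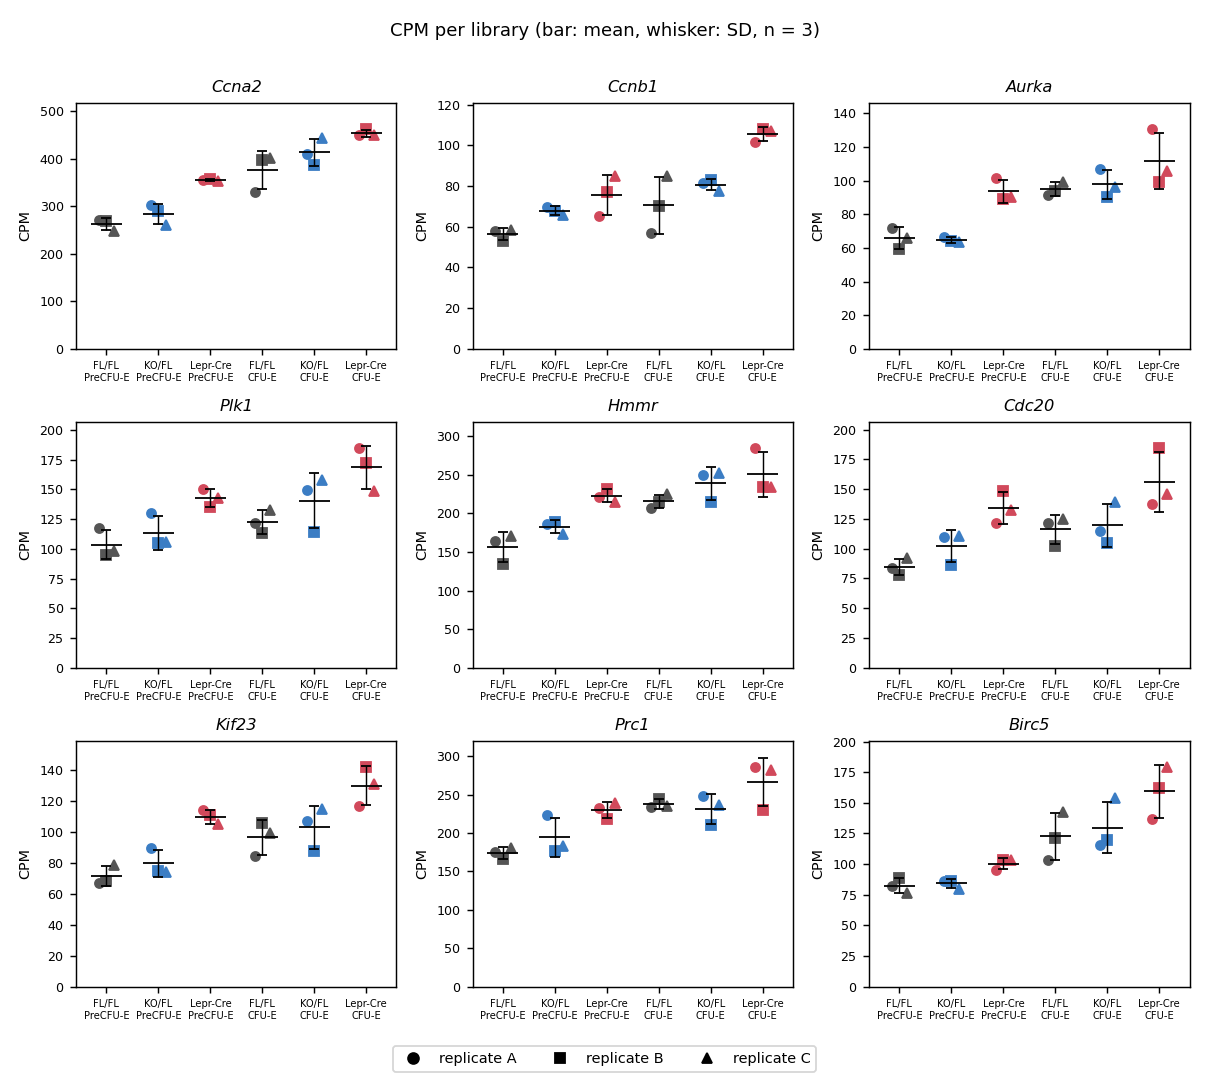
CPM of 9 genes in each library, by group of genotype and cell type (x axis), with replicates A, B and C as circle, square and triangle, and mean and SD over 3 libraries as bar and whisker. Ccna2 in PreCFU-E runs from 247 to 270 in FL/FL and from 353 to 357 in Lepr-Cre mice.

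In FL/FL mice 19 genes were higher in CFU-E than in PreCFU-E and 1, Cdc25b, was lower, where 8.99% of all genes rose, 9.30% fell and 18.3% changed in either direction (edgeR, 10732 genes tested). The median log2 fold change was 0.28 against 0.01 over all genes, and 47 of 51 genes lay above 0 against 51.6%. By role 4 of 7 spindle pole genes rose (Aurka, Hmmr, Aspm and Dlgap5), 3 of 7 centromere and kinetochore genes (Cenpa, Spc24 and Nuf2), 3 of 7 cytokinesis genes (Prc1, Kif23 and Kif20a), 3 of 6 chromosome structure genes (Smc2, Smc4 and Ncapg), 2 of 9 checkpoint and anaphase genes (Bub1 and Cdc20), 2 of 7 cyclin and entry genes (Ccna2 and Ccnb2), the passenger subunit Birc5 and the chromokinesin Kif4. This step uses the FL/FL PreCFU-E libraries that also serve as control for Lepr-Cre PreCFU-E, so the counts of the 2 comparisons are not independent.

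The rises ran from 0.29 for Smc4 to 0.64 for Cenpa on the log2 scale. Cenpa, the histone variant that marks centromeres, measured 109.4, 111.7 and 155.0 CPM in FL/FL PreCFU-E and 192.6, 180.9 and 209.2 in CFU-E (log2 fold change 0.64, SE 0.15, adjusted p = 0.0029, edgeR). Ccnb2, the second B cyclin, measured 74.8, 84.5 and 100.6 CPM in PreCFU-E and 124.3, 117.4 and 151.2 in CFU-E (log2 fold change 0.60, SE 0.13, adjusted p = 0.00152, edgeR). In both genes replicate C was the highest of its group in both cell types, and the cell types did not overlap. Birc5, which encodes survivin of the passenger complex, measured 82.2, 88.6 and 76.4 CPM in PreCFU-E and 103.6, 121.7 and 142.5 in CFU-E (log2 fold change 0.58, SE 0.13, adjusted p = 0.0019, edgeR).

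Aurka rose by 0.53 (SE 0.13) from 59.3 to 72.0 CPM in FL/FL PreCFU-E to 91.7 to 99.4 in CFU-E. Ccna2 rose by 0.53 (SE 0.10, adjusted p = 0.00013, edgeR), to 330.4, 398.6 and 401.5 CPM in CFU-E. Spc24, an NDC80 complex subunit, measured 63.7, 69.8 and 59.2 CPM in PreCFU-E and 81.7, 87.9 and 103.4 in CFU-E (log2 fold change 0.51, SE 0.14). Aspm, which focuses spindle poles, measured 297.0, 254.2 and 225.9 CPM in PreCFU-E and 374.8, 408.6 and 291.5 in CFU-E (log2 fold change 0.47, SE 0.14), and was the only one of the 20 whose groups overlapped. Hmmr completes the 8 largest rises at 0.47 (SE 0.11). Groups did not overlap for 24 higher genes and 1 lower gene of the set, against 16.4% and 18.4% of all genes.

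Birc5, Ccna2, Ccnb2 and Cdc25b passed under each of the 12 alternatives run for this step, which was not counted over all genes. The number past the threshold was 12 without FL/FL CFU-E replicate B or FL/FL PreCFU-E replicate B or C, 13 without FL/FL CFU-E replicate C, and 5 in males alone. These fits called 1342, 1376, 1684, 1598 and 887 of all genes, in that order, against 1963 in the main fit.

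In KO/FL mice 10 genes were higher in CFU-E and 1 lower, where 6.89% of all genes rose, 7.18% fell and 14.1% changed. Ccna2 (log2 fold change 0.54), Birc5 (0.62), Aurka (0.59), Ccnb2 (0.60), Kif4 (0.45), Hmmr (0.38), the centrosomal kinase Nek2 (0.45), the NDC80 complex subunit Nuf2 (0.42), Smc2 (0.31) and the checkpoint kinase Bub1 (0.35) rose, and Cdc25b fell. The median was 0.22, and 38 genes lay above 0. With the mouse as a block 22 genes passed, 21 of them higher, against 20.1% of all genes, and without the block 6 passed when KO/FL CFU-E replicate A or C was left out. Without those libraries 1137 and 1131 of all genes passed, against 1510 in the main fit.

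In Lepr-Cre mice 3 genes were higher in CFU-E and none was lower, where 3.00% of all genes rose and 7.25% changed. Birc5 measured 94.97, 103.2 and 103.3 CPM in PreCFU-E and 136.7, 162.4 and 179.2 in CFU-E (log2 fold change 0.66, SE 0.13, adjusted p = 0.00127, edgeR). Ccna2 moved from 353.5 to 357.1 CPM up to 449.3 to 462.9 (log2 fold change 0.35, SE 0.10), and Ccnb1 from 65.2, 76.8 and 84.9 CPM to 101.7, 108.0 and 107.1 (log2 fold change 0.48, SE 0.14). Neither gene overlapped between the cell types. The median of the 51 genes was 0.11, and 40 lay above 0. With the mouse as a block 7 passed (12.3% of all genes): these 3, Ccnb2, Cdk1 and Kif20a higher, and Cenpf, a protein of the outer kinetochore, lower (log2 fold change -0.32, adjusted p = 0.00674, edgeR). Without the block 1 passed when Lepr-Cre CFU-E replicate B or C or Lepr-Cre PreCFU-E replicate A or B was left out, and Birc5 passed with any single library left out.

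The summed level of the 51 genes was 11305 ± 494 CPM (SD, n = 3) in FL/FL, 11651 ± 933 in KO/FL and 12705 ± 802 in Lepr-Cre PreCFU-E, and 13442 ± 699, 13238 ± 384 and 13457 ± 476 in CFU-E. In CFU-E the genotypes overlapped fully, and in PreCFU-E each Lepr-Cre library was above each FL/FL library. Mki67 alone contributes 2180 to 2789 CPM to these group means. Summed markers of haemoglobinised erythroblasts were 20.9 to 73.6 CPM in all PreCFU-E libraries and 186.7 to 298.2 in CFU-E, with 8 of 8 higher in FL/FL CFU-E and 7 of 8 for each of the other genotypes. In FL/FL mice summed endothelial markers were 39.7 to 46.0 CPM in PreCFU-E and 25.6 to 33.7 in CFU-E, stromal markers 9.95 to 16.4 and 0.473 to 1.64, and T and NK cell markers 1.04 to 6.36 and 0 to 0.473, with Cdh5 and Cd3e at 0 in both cell types. Their part in the differences was not tested.

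**Figure D3:**
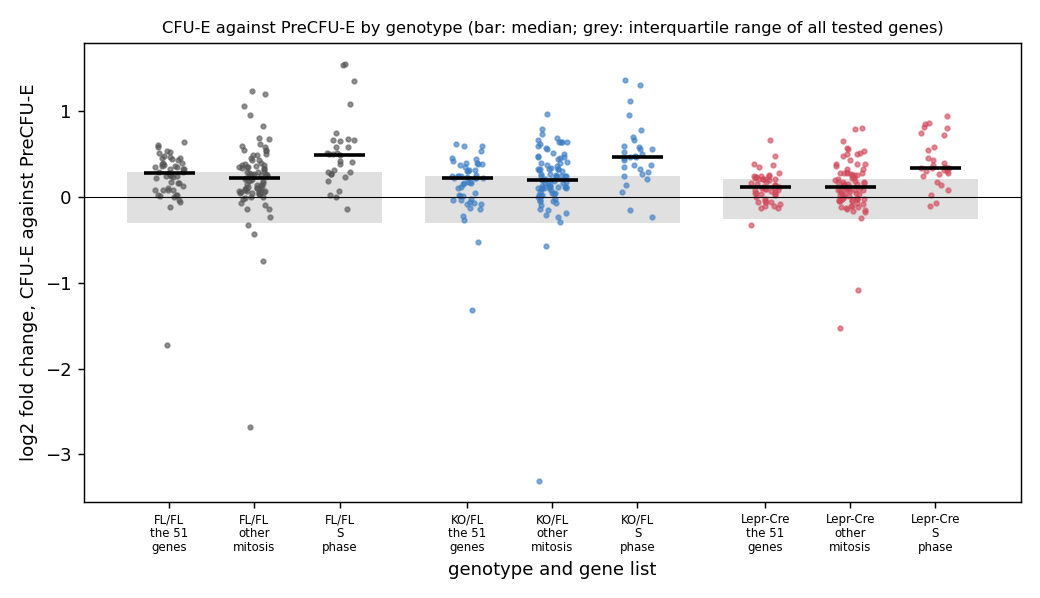
Log2 fold change of CFU-E against PreCFU-E in each genotype for the 51 genes, the 86 other mitosis genes and the 30 tested S phase genes (points, 1 per gene), with the median as a bar and the interquartile range of all tested genes in grey. The median of the 51 genes was 0.28 for FL/FL, 0.22 for KO/FL and 0.11 for Lepr-Cre mice, and that of the S phase genes 0.49, 0.46 and 0.34.

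Whether this step differed between genotypes was tested as an interaction of genotype and cell type over all 18 libraries. No gene of the set passed for Lepr-Cre against FL/FL, where 0.354% of all genes did, and 2 had an unadjusted p below 0.05, as did 877 of all 10732 genes. None passed for Lepr-Cre against KO/FL, where 0% of all genes did, 1 had an unadjusted p below 0.05 (569 of all genes did) and DESeq2 called 0. The median interaction was -0.16 for Lepr-Cre against FL/FL, with 9 of 51 above 0, and -0.02 over all genes, with 46.9% above 0. For Lepr-Cre against KO/FL it was -0.05, with 16 of 51 above 0, and -0.02 over all genes, with 47.2% above 0. Against FL/FL Hmmr had the third smallest p at -0.29 (SE 0.15), and against KO/FL Aurka (-0.33) and Kif22 (-0.32) followed Cdc25b.

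Cdc25b, a phosphatase that activates CDK1 at the onset of mitosis, ran against the set. The gene lies at chr2:131186949-131198497 on the plus strand of GRCm38. It measured 32.6, 27.5 and 19.9 CPM in PreCFU-E of FL/FL, 16.5, 29.9 and 21.2 of KO/FL and 16.98, 17.51 and 16.09 of Lepr-Cre mice. In CFU-E it measured 11.6, 7.63 and 5.21 for FL/FL, 11.6, 5.78 and 10.1 for KO/FL and 24.20, 20.64 and 10.97 for Lepr-Cre mice. The level therefore dropped between the cell types without overlap in the first 2 genotypes and not in Lepr-Cre mice.

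From PreCFU-E to CFU-E Cdc25b fell by 1.73 on the log2 scale in FL/FL (SE 0.33, adjusted p = 0.00031) and by 1.32 in KO/FL (SE 0.33, adjusted p = 0.00544, edgeR). In KO/FL the call was lost without PreCFU-E replicate B (log2 fold change -1.07, adjusted p = 0.0592, edgeR). The interaction of Lepr-Cre against FL/FL was 1.87 (SE 0.46, adjusted p = 0.0626, edgeR) and did not pass. It passed with the mouse as a block (1.83, adjusted p = 0.00782), as did Aspm in the opposite direction (-0.51, adjusted p = 0.0128), where 1.84% of all genes passed. It also passed by DESeq2 (adjusted p = 0.0208), with no filter on low counts (adjusted p = 0.00232), and without Lepr-Cre CFU-E replicate C, FL/FL CFU-E replicate A or FL/FL PreCFU-E replicate C (adjusted p = 0.0192, 0.0274 and 0.0452). Against KO/FL the interaction was 1.46 (SE 0.46, adjusted p = 0.496) and passed with neither the block (0.568% of all genes) nor DESeq2. Cdc25b exons overlap those of Spef1 on the other strand, and no source used here states whether counting was strand-specific.

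Its paralogue Cdc25c showed no such pattern, with group means of 19.2 to 23.3 CPM in all 6 groups. Pttg1, which encodes securin, the inhibitor of separase, was the least reproducible gene of the set, with a within-group SD of 0.70 on the log2 CPM scale, against 0.45 for Cdc25b and 0.40 for Cdc25c. It measured 7.74, 24.5 and 39.1 CPM in Lepr-Cre PreCFU-E and 14.7, 40.9 and 30.9 in FL/FL CFU-E, so differences in its group means (17.98 to 28.86 CPM) lay within the spread of a group. Incenp, at 0.06, was the most reproducible.

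Some of the spread followed the replicate letter. Mki67 was lowest in replicate C in all 6 groups, for example at 2418, 2327 and 1796 CPM in FL/FL PreCFU-E and 3091, 3216 and 2060 in FL/FL CFU-E. The same held for Cenpf and for Cenpe, the kinetochore motor, so 3 of the 51 genes were lowest in C in all 6 groups, where 2.66% of all 10732 tested genes were. Ccnb2, Cdk1 and Mad2l1 were highest in C in all 6 groups, where 3.07% of all tested genes were. Anln and Cenpe were highest in A in all 6 groups, where 0.997% of all tested genes were. Ncapd2 was highest in B (0.773% of all) and Ect2 lowest in B (0.270% of all) in all 6. The letters mark mice and go with sex, B being female and A and C male. The labels do not say what else they share.

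**Figure D4:**
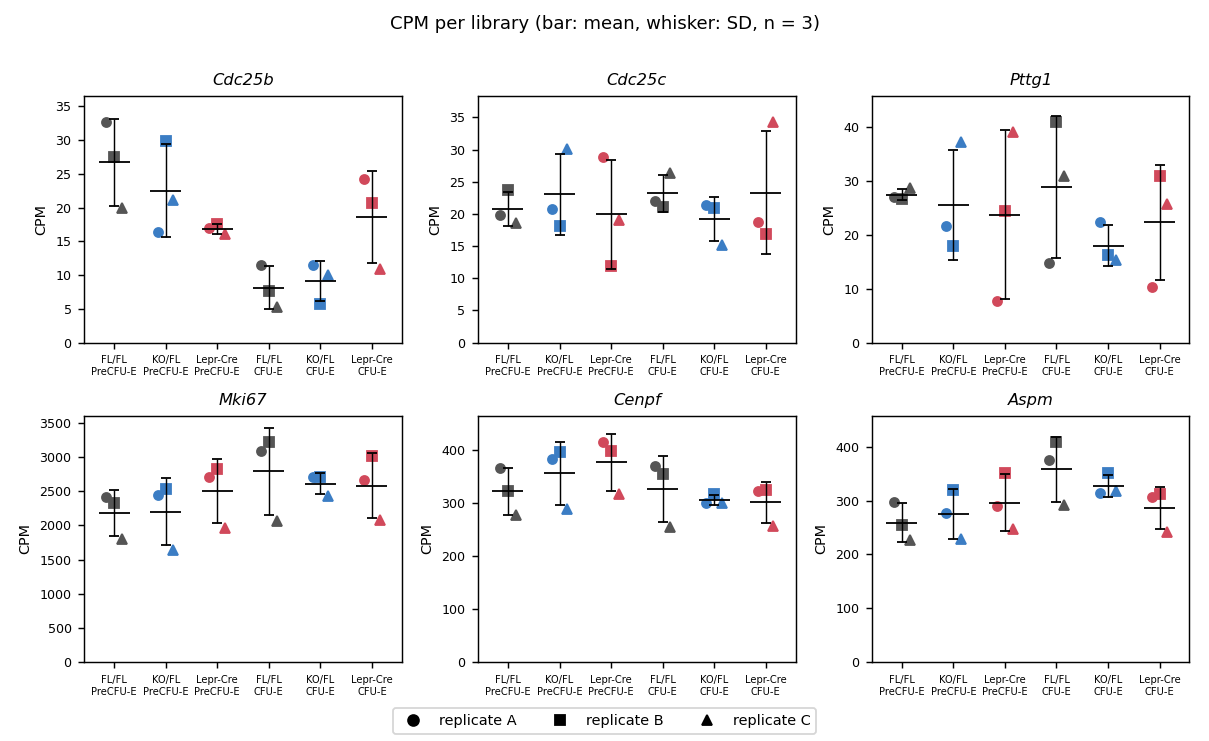
CPM of 6 genes in each library, by group of genotype and cell type (x axis), with replicates A, B and C as circle, square and triangle, and mean and SD over 3 libraries as bar and whisker. Cdc25b is at 5.21 to 11.6 in FL/FL and KO/FL CFU-E and at 10.97 to 24.20 in Lepr-Cre CFU-E, Pttg1 spreads widely within groups, and the triangle is lowest in every group for Mki67 and Cenpf.

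The factors known to act on these promoters were followed as a list of 14 regulators of late cell cycle transcription. In Lepr-Cre against FL/FL PreCFU-E, E2f4, the E2F of the repressive DREAM complex (log2 fold change 0.43, adjusted p = 0.0105, edgeR), and Mybl2, which encodes B-MYB (0.51, adjusted p = 0.0299, edgeR), rose and none fell. Against KO/FL only E2f4 rose (0.42). Of all genes 2.89% rose against FL/FL and 1.02% against KO/FL. From PreCFU-E to CFU-E 4 rose and 1 fell in FL/FL mice: Mybl2 (0.77), E2f4 (0.58), the MuvB subunit Lin52 (1.09) and the NF-Y subunit Nfyc (0.69) rose, and the NF-Y subunit Nfya fell by 0.54 on the log2 scale. In KO/FL Mybl2 (0.58), E2f4 (0.58) and Rbl1 (0.35), a pocket protein, rose, and in Lepr-Cre mice E2f4 (0.49) and Mybl2 (0.53). Between the cell types 8.99%, 6.89% and 3.00% of all genes rose in FL/FL, KO/FL and Lepr-Cre mice, and 9.30% fell in FL/FL. None of the 14 passed in the other comparisons of genotypes.

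Of 86 other genes of mitosis outside the set, 6 rose and none fell in Lepr-Cre against FL/FL PreCFU-E, with a median of 0.12. They included the midbody kinesin Kif14 (log2 fold change 0.56), the condensin II subunit Ncapg2 (0.48), the PP2A inhibitor Arpp19 (0.48) and the kinetochore adaptor Spdl1 (0.48). Against KO/FL 2 rose, Kif14 (0.46) and Ncapg2 (0.45). The share of all genes that rose was 2.89% against FL/FL and 1.02% against KO/FL. In CFU-E only Ncapd3 of condensin II passed, lower in Lepr-Cre than in FL/FL mice (-0.40), where 4.83% of all genes changed. Between cell types 19 rose and 2 fell for FL/FL, 17 and 1 for KO/FL and 3 and 1 for Lepr-Cre mice. Of all genes 8.99% rose and 9.30% fell for FL/FL, and 6.89% and 7.18% for KO/FL. For Lepr-Cre mice 3.00% of all genes rose and 7.25% changed. Ncapg2 rose in all 3 genotypes (0.96, 0.97 and 0.51), and Cep55, which recruits the abscission machinery to the midbody, fell by 2.68 in FL/FL and fell by 3.31 in KO/FL mice on the log2 scale. In Lepr-Cre mice Depdc1b fell by 1.09.

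Of 30 tested S phase genes 20 rose between the cell types for FL/FL, 21 for KO/FL and 12 for Lepr-Cre mice, and none fell. Medians of these S phase genes were 0.49, 0.46 and 0.34, while 8.99%, 6.89% and 3.00% of all genes rose. Cyclin E1 (Ccne1) and the ribonucleotide reductase subunit Rrm2 had the smallest p in each genotype, with log2 fold changes of 1.54 and 1.36 for FL/FL, 1.36 and 1.30 for KO/FL and 0.94 and 0.86 for Lepr-Cre mice. In PreCFU-E of Lepr-Cre against FL/FL mice 4 rose: Rrm2 (1.04), Ccne1 (1.03), Ccne2 (0.85) and the helicase subunit Mcm5 (0.39). Against KO/FL Rrm2 (0.79) and Ccne1 (0.73) rose, and in CFU-E against FL/FL Rrm2 (0.56) and Ccne1 (0.45). The shares of all genes that rose were 2.89%, 1.02% and 2.08%, in the same order. In that comparison of PreCFU-E with FL/FL, Rrm2, Ccne1 and Ccne2 had larger log2 fold changes than Cdc20, the highest of the 51 mitosis genes at 0.67, and the difference between the lists was not tested.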

How the data were processed

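Total RNA of sorted cells was sequenced with a stranded low-input kit (SMARTer Pico), per the labels' protocols, whose heading names nuclear extraction. The submitters' processing notes name STAR 2.5.2b, HTSeq and mm10, without a strand setting, annotation or filter. One deposited table holds raw read counts per gene symbol. The other holds RPKM, which the authors scaled by library total and by 1 number per gene. That number was within 2% of the gene's own exon length for 0.77% of 15400 genes and of its own span for 4.11%, so RPKM was not used between genes, and levels were instead ranked by CPM per kb of GENCODE M21 exon (GRCm38), which departs from the planned RPKM.

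Genotypes were compared on the 9 libraries of a cell type, and cell types and interactions on all 18, with edgeR 4.0.16 in R 4.3.3 (TMM, filterByExpr with minimum count 10, robust quasi-likelihood test, two-sided, Benjamini-Hochberg over all tested genes, threshold 0.05). SE is the absolute log2 fold change over the square root of F. Alternatives were DESeq2 1.42.0, other scalings, no filter, all 18 libraries in 1 fit, a replicate block, male mice alone, and leaving out each library.

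The 51 genes and all lists were chosen with earlier results of these data known. Per-library values follow a rule: up to 12 genes with the smallest p past the threshold per comparison of genotypes, the 3 smallest where fewer than 3 pass, up to 8 rises and 8 falls between cell types in FL/FL mice, the 3 smallest p of each interaction, the 5 highest and lowest levels, and up to 4 genes of each other list. Values of Pttg1, Cdc25c, Mki67, Cenpf and Cenpe and those of the genes added by the block go beyond it and were chosen after they were seen.

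Cell types of a genotype share mice. Deviations of same-letter libraries from their group means were correlated for the 3 letters of each of the 9 pairwise comparisons. The correlations were 0.111 to 0.197 between cell types of the same mouse and 0.104 to 0.208 between genotypes, where the mice differ. These values lay above 0.1, the threshold set for pairing. The main fits still held no block and treated libraries of the same mouse as independent, and the replicate block was run only as an alternative. Between the cell types the main fits called 20, 11 and 3 of the 51 genes in FL/FL, KO/FL and Lepr-Cre mice. With the mouse as a block these counts were 28, 22 and 7. All genes called numbered 1963, 1510 and 778 in the main fits and 2707, 2153 and 1323 with that block, in the same order. The p-values of genotype comparisons rest on a spread pooled over the 9 libraries of a cell type, all 3 genotypes included, and drawn toward that of other genes. Each group had 3 mice. Totals of 3541066 to 9389122 counts limit the precision of low genes such as Cdc25b (44 to 314 counts).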

Additional observations from a re-analysis of the deposited data

How the results depend on the processing

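No log2 fold change of a gene past the threshold changed sign under any alternative run. The number of the 51 genes past the threshold moved by more than 1.5 times as follows, and where the number of libraries did not fall the cause was not tested. For Lepr-Cre against FL/FL PreCFU-E it was 7, and 19 with the replicate block, 0 in males alone and 3 to 6 with 1 library left out. All genes called numbered 632, 1586, 193 and 371 to 471 in the same order. For Lepr-Cre against KO/FL PreCFU-E the number of the 51 genes was 1, and 7 with the replicate block, 2 by DESeq2, 0 on library totals without TMM, 0 in males and 0 to 1 with 1 left out. All genes called numbered 225, 840, 332, 235, 34 and 92 to 218 in the same order. For Lepr-Cre against FL/FL CFU-E the number of the 51 genes was 2, and 10 with the replicate block, 5 with no filter, 4 with all 18 libraries in 1 fit, 1 on library totals, 0 in males and 0 to 4 with 1 left out. All genes called numbered 492, 933, 751, 583, 506, 132 and 221 to 610 in the same order. For CFU-E against PreCFU-E the number of the 51 genes was 20 for FL/FL, 11 for KO/FL and 3 for Lepr-Cre mice. Blocked by mouse (the replicate block) KO/FL mice gave 22 and Lepr-Cre mice 7, and in males 5, 7 and 0. With 1 library left out it was 12 to 18, 6 to 13 and 1 to 2. All genes called numbered 1963, 1510 and 778, with 2153 for KO/FL and 1323 for Lepr-Cre mice under the block. In males they numbered 887, 796 and 304, and with 1 left out 1342 to 1684, 1047 to 1364 and 473 to 789. For the interaction of Lepr-Cre against FL/FL the number of the 51 genes was 0, and 1 with no filter, 1 by DESeq2, 2 with the replicate block and 0 to 1 with 1 left out. All genes called numbered 38, 140, 97, 198 and 22 to 57 in the same order. The block moved no other count of the 51 genes by over 1.5 times (28 against 20 in FL/FL between cell types, where all genes called numbered 2707 against 1963). Under every alternative run, 4 of the 20 genes in FL/FL and 3 of the 11 in KO/FL passed between the cell types, and none of those called in the other comparisons did. The share of all called genes that passed under every alternative was not counted. The male-only fits hold 2 mice per group, which limits what they can call.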
